A study of Mus musculus with 6 samples.

Results

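The primary granule genes of neutrophils were followed in hematopoietic stem cells (HSCs) of irradiated and control mice. The set holds 10 genes listed by name for the promyelocyte stage and for granulocyte-monocyte progenitors: Mpo, Elane, Prtn3, Ctsg, Ms4a3, Ctsc, Cst7, Hp, Calr4 and Nkg7. All 10 were among the 21851 genes of the deposited tables. The data are RNA-seq of cells sorted from mouse bone marrow as lineage-negative, Sca-1+, c-Kit+, CD150+, Flt3- and CD48-, with 3 libraries from control mice (Ctrl) and 3 from mice given ionizing radiation (IR). All mice are labelled wild type, and the sources used here do not give their age, how many mice entered a library, the radiation dose or how long after exposure the cells were sorted. Values are FPKM, fragments scaled to the length of the transcript and to the size of the library, so levels of different genes can be compared per length. Whether libraries of the same group stem from different mice is not stated in the labels, so the tests here weigh differences only against the spread among these libraries, which may be technical.

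Primary, or azurophil, granules are the storage organelles that a neutrophil precursor builds at the promyelocyte stage. They hold myeloperoxidase, which makes hypochlorous acid from hydrogen peroxide, and the serine proteases neutrophil elastase, proteinase 3 and cathepsin G. These proteases are made as inactive precursors and are activated by cathepsin C, which removes their leading dipeptide; cystatin F, the product of Cst7, is an inhibitor of cathepsin C. Transcription of these genes is highest in granulocyte-monocyte progenitors and promyelocytes and ends as the secondary granules form, so mature neutrophils carry the proteins but little of the RNA. PU.1, C/EBP, RUNX and MYB are the transcription factors best known to act on their promoters.

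The start regions of 5 members are shown because they include the 4 genes of the major granule enzymes and the only member that was lower in IR, Ctsc. Windows of 300 bases, from 250 bases before to 50 bases after the start site, were found in RefSeq (GRCm38.p6) for 9 of the 10 members. Each is printed 5′ to 3′ on the strand of the gene, in lower case, with capitals for every match to GAGGAA (PU.1), TTGCNNAA (C/EBP), TGTGGT (RUNX) or CAACNG (MYB) on either strand. No 2 matches overlap in these 5 windows.
Elane, chr10:79886062-79886361, plus strand: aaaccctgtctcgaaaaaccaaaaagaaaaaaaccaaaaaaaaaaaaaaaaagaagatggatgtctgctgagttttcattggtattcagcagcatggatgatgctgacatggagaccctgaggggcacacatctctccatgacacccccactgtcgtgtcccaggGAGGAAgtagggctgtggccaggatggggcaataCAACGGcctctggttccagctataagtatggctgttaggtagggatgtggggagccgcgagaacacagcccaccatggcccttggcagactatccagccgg
Prtn3, chr10:79879417-79879716, plus strand: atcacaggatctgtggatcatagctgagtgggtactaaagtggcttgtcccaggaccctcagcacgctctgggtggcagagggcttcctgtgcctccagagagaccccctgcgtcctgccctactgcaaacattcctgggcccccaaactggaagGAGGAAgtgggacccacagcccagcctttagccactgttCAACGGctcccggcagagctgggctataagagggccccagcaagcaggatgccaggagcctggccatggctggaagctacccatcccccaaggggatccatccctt
Ctsg, chr14:56102525-56102824, minus strand: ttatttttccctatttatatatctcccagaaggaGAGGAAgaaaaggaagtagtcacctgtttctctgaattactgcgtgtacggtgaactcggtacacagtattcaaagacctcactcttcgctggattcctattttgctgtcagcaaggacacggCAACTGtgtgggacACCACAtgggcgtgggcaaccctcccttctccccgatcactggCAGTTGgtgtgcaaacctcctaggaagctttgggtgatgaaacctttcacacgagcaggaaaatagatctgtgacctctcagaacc
Mpo, chr11:87793534-87793833, plus strand: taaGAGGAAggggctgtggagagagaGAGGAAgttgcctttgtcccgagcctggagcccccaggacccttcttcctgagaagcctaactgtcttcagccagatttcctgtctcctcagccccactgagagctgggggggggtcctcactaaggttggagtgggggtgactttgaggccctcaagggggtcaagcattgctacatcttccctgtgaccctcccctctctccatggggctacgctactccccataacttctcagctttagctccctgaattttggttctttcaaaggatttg
Ctsc, chr7:88277835-88278134, plus strand: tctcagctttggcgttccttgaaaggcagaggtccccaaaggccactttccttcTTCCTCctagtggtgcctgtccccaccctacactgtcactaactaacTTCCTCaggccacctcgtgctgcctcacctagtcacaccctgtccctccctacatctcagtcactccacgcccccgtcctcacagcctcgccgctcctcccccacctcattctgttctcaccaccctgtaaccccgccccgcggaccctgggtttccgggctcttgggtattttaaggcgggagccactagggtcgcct
Elane and Prtn3 have the same pair of words in the same order and at nearly the same distance from the start. In Elane the GAGGAA match begins at position -85 and CAACGG at -51, and in Prtn3 they begin at -95 and -56. Ctsg carries GAGGAA at -216, CAACTG at -93, ACCACA, the RUNX word on the other strand, at -79 and CAGTTG at -36. Mpo holds GAGGAA at -247 and -224, and Ctsc its reverse TTCCTC at -196 and -149. Among the 8 members with a single window, a PU.1 word was present in 6, a MYB word in 4, a RUNX word in 3 and a C/EBP word in 2. Of 32851 RefSeq windows of this length, 28.3% held the PU.1 word, 35.02% the MYB word, 16.8% the RUNX word and 10.8% the C/EBP word. These are matches of letters only.

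In the annotation (GENCODE M21, GRCm38) Prtn3 (chromosome 10, 79874476 to 79883174, plus strand) and Elane (chromosome 10, 79886247 to 79888215, plus strand) are neighbours, 3072 bases apart. Ctsg lies on chromosome 14 (56099881 to 56102574, minus strand), Mpo on chromosome 11 (87793581 to 87804413), Ms4a3 on chromosome 19 (11629496 to 11640851) and Ctsc on chromosome 7 (88278085 to 88310888). Cst7 lies on chromosome 2 (150570415 to 150578944), Hp on chromosome 8 (109575128 to 109579172), Calr4 on chromosome 4 (109234485 to 109254571) and Nkg7 on chromosome 7 (43437073 to 43438249). All are protein-coding. Of the words of 50 bases in their transcripts, none was found in a transcript of another gene for 9 members, Elane, Prtn3 and Ctsg included. For Mpo, 11.96% also lay in Gm11505, an antisense gene that overlaps it. The library kit keeps strand, but the sources used here do not state whether quantification used strand, so reads from Mpo and from its antisense partner may not have been told apart.

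Steps between low FPKM values correspond to about 14400000 to 16300000 fragments per library. At that depth Mpo rests on about 88808 to 115596 fragments per library and Ctsc, the lowest detected member, on about 618 to 791. Differences were tested with limma on log2(FPKM + 1) over the 10281 genes that reached 1 FPKM in 3 or more libraries, with Benjamini-Hochberg adjustment over all of them, and a gene was called at an adjusted p under 0.05. This called 2650 genes as higher and 2972 as lower in IR, which is 54.7% of the genes tested. A call is therefore common in this comparison, and the size of each difference is given with its test. Across genes, Pearson's r was 0.998 to 0.999 between libraries of the same group and 0.9901 to 0.9904 between a Ctrl and an IR library.

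Of the HSC markers, Procr was at 19.2 ± 0.494 FPKM in Ctrl and 12.6 ± 0.704 FPKM in IR (mean ± SD, n = 3 here and below), and 5 of the 14 tested markers rose and 6 fell, with a median log2 difference of -0.03. Of markers named after their values were seen, Hlf was at 6.93 FPKM and Mecom at 3.37 FPKM in Ctrl, and Fgd5 was under 1 FPKM in every library. Slamf1, the gene of CD150, and Tek, named in the same way, rose. Slamf1 went from 3.57 ± 0.409 to 5.06 ± 0.443 FPKM and Tek from 3.09 ± 0.405 to 5.57 ± 0.142 FPKM. Ly6a, the gene of Sca-1, fell from 203 ± 5.13 to 157 ± 5.17 FPKM. RNA of Cd48 and Flt3, whose proteins the sort gated out, was present in all 6 libraries and fell in IR. Cd48 was at 400.1 ± 3.36 FPKM in Ctrl and 352 ± 8.003 FPKM in IR, and Flt3 at 125 ± 1.58 and 65.7 ± 1.43 FPKM (adjusted p by limma = 5.40e-05 and 4.06e-09).

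IR HSCs carried more RNA of the main granule enzymes and less of the protease activator. Of the 10 genes, 9 passed the filter on low values, and of these 8 rose, 1 fell (Ctsc) and none was left uncalled; Calr4 was listed at 0 in all 6 libraries. Among all tested genes 25.8% rose and 28.9% fell. The IR libraries lay all above the Ctrl libraries in 8 members and all below in Ctsc, against 29.1% and 32.5% of all tested genes. The median log2 fold change of the 9 tested members was 0.19, against -0.01 over all tested genes. Of the 8 members that stood at 50 FPKM or more in Ctrl, all rose, while among the 2049 tested genes at that level 30.3% rose and 32.6% fell. Because the members were chosen with earlier results of these data known, these contrasts with all genes describe the set and do not test it. Summed over the members, the level was between 6186 and 6241 FPKM in the Ctrl libraries and between 7232 and 7384 FPKM in the IR libraries, or 1.27% to 1.28% and 1.49% to 1.51% of all FPKM of a library. Mpo made up 37.7% of the net increase of 1093 FPKM, Elane 20.2%, Ctsg 17.2% and Nkg7 10.4%. In bulk RNA, more cells with granule transcripts and more of these transcripts per cell cannot be told apart.

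**Figure D1:**
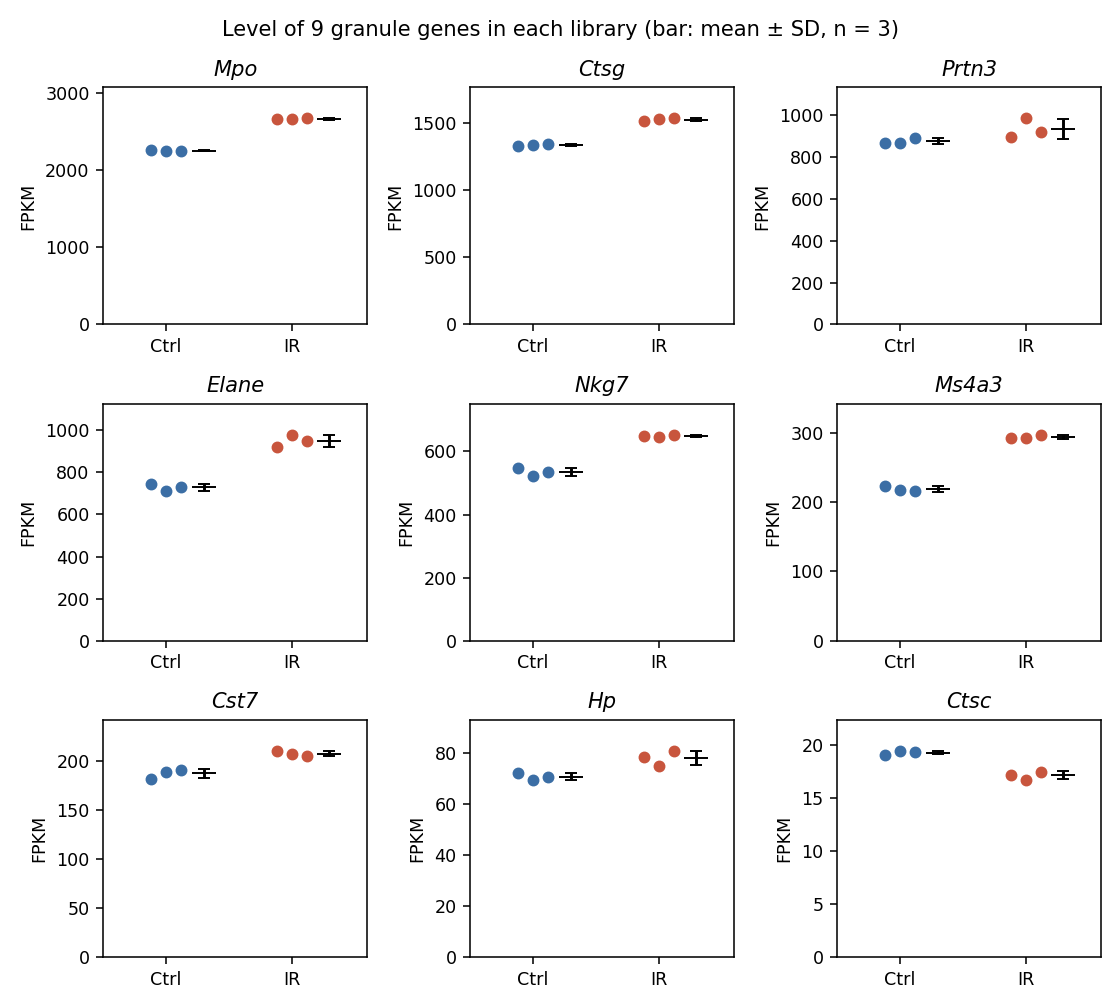
FPKM (y axis, from 0, with a separate scale in each panel) of the 9 detected granule genes in the 3 Ctrl (blue) and 3 IR (red) libraries, with the mean and SD of each group in black. In 8 genes all IR points lie above all Ctrl points, by as little as 2.75 FPKM for Hp, and in Ctsc all lie below.

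Mpo encodes myeloperoxidase and was the most abundant member in every library. It stood at 2261, 2254 and 2243 FPKM in Ctrl replicates 1 to 3 and at 2660.4, 2659.6 and 2674 FPKM in IR replicates 1 to 3. The groups lay 399 FPKM apart, with a coefficient of variation of 0.41% in Ctrl and 0.30% in IR. Counting error alone gives an SD of about 0.34% in a single library, so this spread is near that of counting. The IR mean was 1.18-fold the Ctrl mean (log2 fold change 0.24, SE 0.013, adjusted p by limma = 3.95e-07). By level, Mpo was the rank 7 gene of the table in each Ctrl library and the rank 2 gene in each IR library.

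Epx, the eosinophil peroxidase gene and a neighbour of Mpo on the chromosome, moved the other way. It fell from 4.94 ± 0.318 to 1.80 ± 0.108 FPKM (log2 fold change -1.09). The remaining neighbour with a peroxidase product, Lpo, was under 1 FPKM in every library. Of the 4 tested neighbours of Mpo 3 fell and 1 rose.

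Elane encodes neutrophil elastase. Its level was 743, 710.0 and 731 FPKM in Ctrl and 919.9, 978 and 948 FPKM in IR, with no overlap. The IR mean was 1.30-fold the Ctrl mean (log2 fold change 0.38, SE 0.025, adjusted p by limma = 1.49e-06), and 3.69% of tested genes had a higher log2 fold change. That share was larger for most other members: 8.3% for Nkg7, 11% for Mpo, 15.8% for Ctsg, 21.4% for Cst7, 22.4% for Hp and 30.6% for Prtn3. For Ctsc, 23.5% of tested genes had a lower log2 fold change.

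Prtn3, which encodes proteinase 3 and lies next to Elane, had a smaller log2 fold change. Ctrl libraries were at 869, 868 and 891 FPKM and IR libraries at 897, 986 and 919 FPKM. The groups did not overlap, but the highest Ctrl and the lowest IR library were only 5.72 FPKM apart. Its coefficient of variation was 1.47% in Ctrl and 4.95% in IR, the widest of the members in IR. The log2 fold change was 0.09 (SE 0.031, ratio of means 1.07, adjusted p by limma = 0.0277). The call did not hold without Ctrl replicate 1 (adjusted p = 0.0782), without Ctrl replicate 2 (adjusted p = 0.0811), with quantile scaling (adjusted p = 0.120), without the variance trend (adjusted p = 0.108) or with no filter on low values (adjusted p = 0.0776), all by limma. Without IR replicate 2, the highest, the log2 fold change was 0.05.

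The order of these neighbours in level was fixed in Ctrl and not in IR. In each Ctrl library Prtn3 was the rank 3 member and Elane the rank 4 member, with Elane at 0.855, 0.818 and 0.820 of Prtn3. In the IR libraries the ratio was 1.03, 0.992 and 1.03, so that the levels of both genes overlapped. The mean ratio was 0.831 ± 0.0204 in Ctrl and 1.02 ± 0.0211 in IR, with all IR values above all Ctrl values. A 2-sided exact permutation test gave p = 0.10, the smallest that 3 against 3 libraries allow, and 0.133 after Benjamini-Hochberg adjustment over the 4 ratios computed. Among 7 tested neighbours, 1 rose, 2 fell and 4 missed the threshold: Ptbp1, a splicing regulator, had a log2 fold change of 0.07, Plppr3, which overlaps Prtn3 on the opposite strand, of -0.12 and Med16, a Mediator subunit, of -0.35. Cfd, which encodes complement factor D and lies on the far side of Elane, was under 1 FPKM in all libraries.

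Ctsg encodes cathepsin G, a chymotrypsin-like protease. It stood at 1326, 1335 and 1340.5 FPKM in Ctrl and at 1509, 1525 and 1532 FPKM in IR. The groups were 169 FPKM apart, and Ctsg was the rank 2 member in all 6 libraries. Its log2 fold change was 0.19 (SE 0.015, ratio of means 1.14, adjusted p by limma = 4.34e-06). The granzyme and mast cell protease genes of the same cluster were nearly silent, with 13 of 15 listed neighbours under 1 FPKM in every library. The 2 that were tested rose: Mcpt8, a basophil protease, from 80.8 ± 2.53 to 88.5 ± 1.32 FPKM, and Gzmb, which encodes granzyme B, from 1.11 ± 0.213 to 2.72 ± 0.607 FPKM. The ratio of Mpo to Ctsg differed little, at 1.71, 1.69 and 1.67 in Ctrl and 1.76, 1.74 and 1.75 in IR (exact permutation p = 0.10, adjusted 0.133).

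**Figure D2:**
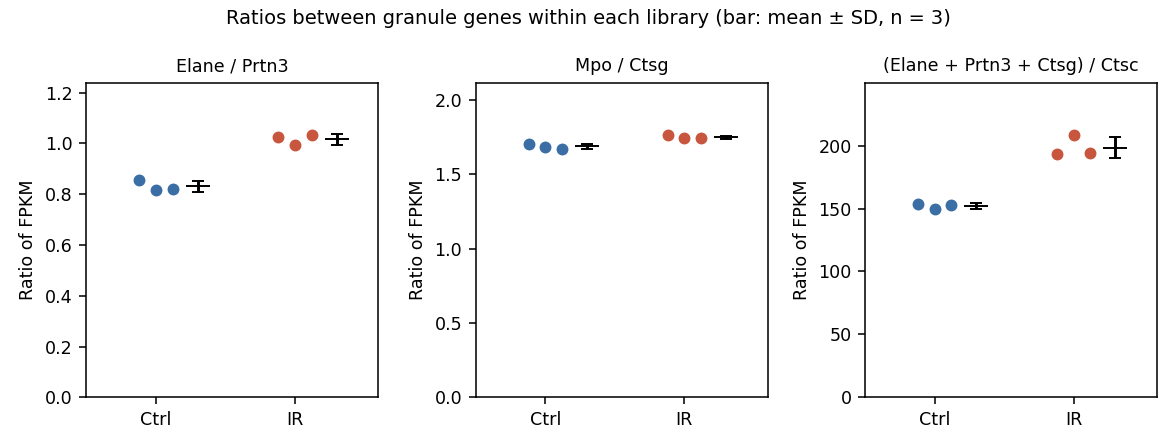
Ratios of FPKM within each library (y axes from 0) for Elane to Prtn3, Mpo to Ctsg and the sum of Elane, Prtn3 and Ctsg to Ctsc, with Ctrl in blue, IR in red and mean and SD in black (n = 3). Elane is at 0.831 of Prtn3 in Ctrl and 1.02 in IR, Mpo at 1.69 and 1.75 times Ctsg, and the sum of the proteases at 152 and 198 times Ctsc.

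The protease activator and its inhibitor moved in opposite directions. Ctsc, which encodes cathepsin C, fell from 19.1, 19.5 and 19.4 FPKM in Ctrl to 17.2, 16.8 and 17.5 FPKM in IR. All IR libraries were below all Ctrl libraries, a mean decrease of 11.1% (log2 fold change -0.16, SE 0.035, adjusted p by limma = 0.00304). Counting error alone gives an SD of about 4.02% in a single library at this depth, more than the 0.90% and 2.23% seen between the libraries of Ctrl and IR. Ctsc was by far the least abundant detected member, and the 3 serine protease genes together were at 154, 150 and 153 times its level in Ctrl and 193, 208 and 194 times in IR (exact permutation p = 0.10, adjusted 0.133).

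Cst7, which encodes cystatin F, rose from 182, 189 and 191 FPKM to 210.1, 207 and 205 FPKM. The groups were 13.9 FPKM apart (log2 fold change 0.15, SE 0.024, adjusted p by limma = 0.000556). Relative to the 3 serine proteases its level did not separate the groups: their sum was 16.1, 15.4 and 15.5 times Cst7 in Ctrl and 15.8, 16.8 and 16.6 times in IR (exact permutation p = 0.20, adjusted 0.20). Among related cathepsins and cystatins, 8 of 11 tested fell and none rose, which is the direction of Ctsc and not that of Cst7. Ctss, a cathepsin of antigen-presenting cells, fell from 92.2 ± 0.661 to 50.6 ± 2.06 FPKM. Mean changes of the 8 ran from -45.1% in Ctss to -5.99% in Cst3, against -11.1% in Ctsc, so the fall of Ctsc was not particular to it. Ctsd, the major aspartic protease of lysosomes, was not called, at 317 ± 6.63 and 324 ± 7.21 FPKM.

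Ms4a3 and Nkg7 encode membrane proteins. Ms4a3, a four-span protein known as a marker of granulocyte-monocyte progenitors, had the largest relative rise of the members. It was at 223, 217 and 216 FPKM in Ctrl and at 292.4, 291.9 and 297 FPKM in IR. The groups were 69.1 FPKM apart, with a ratio of means of 1.34 (log2 fold change 0.42, SE 0.021, adjusted p by limma = 2.24e-07), and 2.74% of tested genes had a higher log2 fold change. Other genes of its family were mostly lower: of 6 tested, 5 fell and none rose. Ms4a4b fell from 12.6 ± 0.674 to 5.91 ± 0.288 FPKM, and Ms4a6b and Ms4a6c, which are found in monocytes, had log2 fold changes of -0.47 and -0.39.

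Nkg7, a granule membrane protein best known from natural killer and cytotoxic T cells, stood at 547, 523 and 534 FPKM in Ctrl. In IR it was at 648, 645 and 653 FPKM, at least 98.0 FPKM above every Ctrl library (log2 fold change 0.28, SE 0.020, ratio of means 1.21, adjusted p by limma = 2.56e-06). Markers of those lymphocytes were low. Of 15 listed, 10 were under 1 FPKM in every library, Cd3g was listed at 0 throughout and Cd3e, Ncr1 and Prf1, named after their values were seen, had means under 1 FPKM in both groups. Their summed level was 14.6 to 17.7 FPKM in Ctrl and 10.6 to 12.7 FPKM in IR, and of the 4 tested 3 fell and 1, Gzmb, rose. Those that fell were the chemokine gene Ccl5, from 7.18 ± 1.22 to 3.66 ± 0.620 FPKM, and the receptor genes Klrb1c, from 3.58 ± 0.369 to 2.03 ± 0.167 FPKM, and Klrd1, from 2.002 ± 0.323 to 0.824 ± 0.297 FPKM.

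Hp encodes haptoglobin, a hemoglobin-binding protein made in liver and stored in neutrophil granules. It was at 72.1, 69.3 and 70.4 FPKM in Ctrl and at 78.3, 74.9 and 80.7 FPKM in IR, with the groups 2.75 FPKM apart (log2 fold change 0.14, SE 0.032, adjusted p by limma = 0.00409). Calr4, a paralog of the endoplasmic reticulum chaperone calreticulin, was listed at 0 in all 6 libraries and was not tested. Calr itself, which helps to fold the myeloperoxidase precursor, rose from 397 ± 2.80 to 520.0 ± 6.27 FPKM, and its partner Canx (calnexin) from 89.2 ± 0.468 to 110.3 ± 1.23 FPKM.

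**Figure D3:**
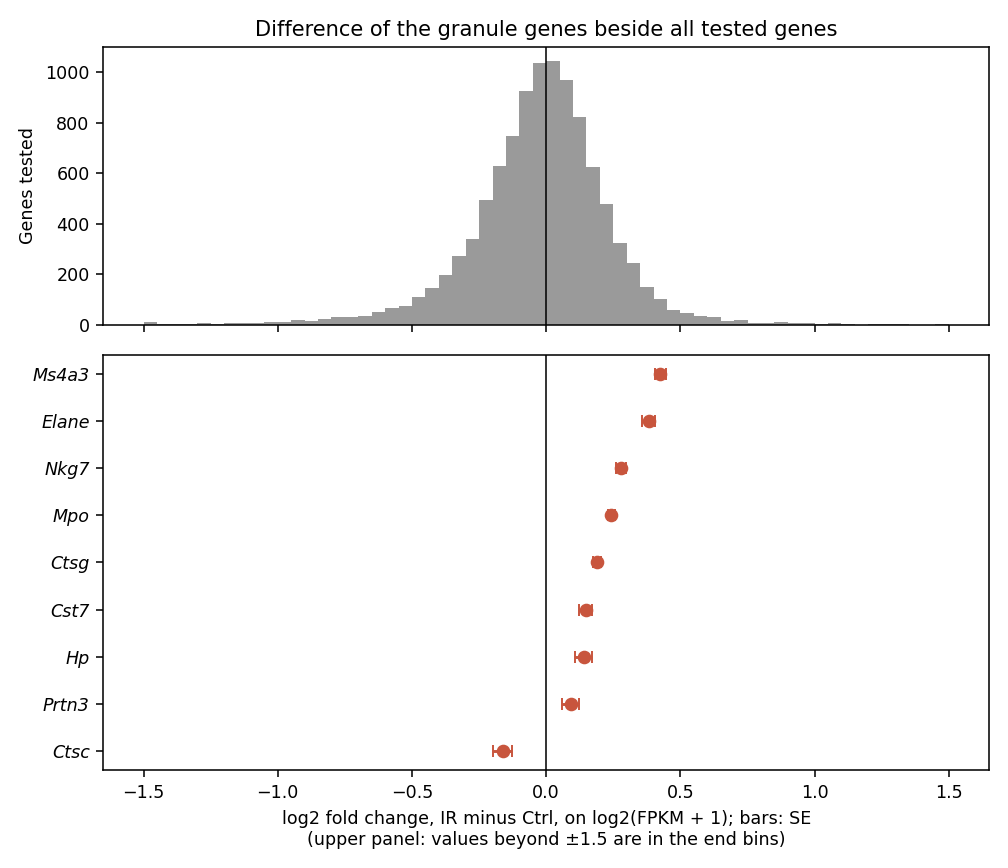
Upper panel, number of tested genes (y axis) by log2 fold change of IR over Ctrl on log2(FPKM + 1) (x axis); lower panel, the 9 tested granule genes on the same x axis with their SE. The members reach from -0.16 for Ctsc to 0.42 for Ms4a3, within the range of all tested genes.

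Other genes of promyelocytes and granulocyte-monocyte progenitors mostly missed the threshold. Of 15 listed genes 14 were tested. Of these, 3 rose and 2 fell, 9 missed the threshold, and the median log2 fold change was 0.01. The risers included Csf3r, the receptor for granulocyte colony-stimulating factor, from 38.2 ± 0.167 to 45.6 ± 0.924 FPKM, and Cd63, a membrane protein of azurophil granules, from 234 ± 1.004 to 259 ± 6.201 FPKM. Lyz2, the lysozyme gene of macrophages and granulocytes that also stands on the monocyte list, fell from 509.97 ± 1.70 to 437 ± 1.75 FPKM, and Clec12a, an inhibitory lectin of myeloid cells, from 74.8 ± 1.35 to 69.9 ± 0.816 FPKM. Prss57, the remaining riser and the gene of a further azurophil serine protease, had a log2 fold change of 0.12, and Srgn, which encodes the granule proteoglycan serglycin, was not called at 391 ± 8.02 and 396 ± 4.69 FPKM; both are named after their values were seen. The summed level of the list was 2011 to 2031 FPKM in Ctrl and 1979 to 1998 FPKM in IR.

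Transcription factors listed for granulocytic fate moved in both directions. The list is not limited to factors of that fate. Among 18 tested, 8 rose, 6 fell and 4 missed the threshold (median log2 fold change 0.03). Cebpe, the C/EBP factor needed for the step from promyelocyte to myelocyte, rose from 8.47, 6.70 and 8.90 FPKM to 12.6, 12.7 and 12.5 FPKM, and Myc from 237 ± 1.86 to 342 ± 4.10 FPKM. Irf8, a factor of the monocyte and dendritic lines, fell from 51.5 ± 0.696 to 37.5 ± 1.81 FPKM and Spi1, which encodes PU.1, from 145 ± 3.76 to 126 ± 3.26 FPKM. Among genes named after their values were seen, Cebpa rose from 18.4 ± 0.659 to 22.3 ± 0.157 FPKM and Myb by 0.12 on the log2 scale, while Runx1, Cbfb and Gfi1 were not called. The C/EBP genes did not move together: Cebpg, also named after its value was seen, rose by 0.19. Cebpd and Cebpb, named in the same way, fell, with log2 fold changes of -0.29 and -0.23.

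Genes for processing, folding and packing of granule proteins rose in 10 of 19 tested cases and fell in 5, with a median log2 fold change of 0.15. The members with the smallest p were chaperones of the endoplasmic reticulum: Hspa5 had a log2 fold change of 0.73, Hsp90b1 of 0.64, Calr of 0.39 and Pdia3, a disulfide isomerase that works with calreticulin, of 0.34. These chaperones serve all secreted proteins. Cpox, an enzyme of the synthesis of heme, which myeloperoxidase binds, rose by 0.35, and Fech, which inserts the iron, had a log2 fold change of -0.12; both are named after their values were seen.

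Most tested inhibitors of granule proteases fell. Of 18 listed genes 10 were tested. In 8 the level fell, none rose and 2 missed the threshold (median log2 fold change -0.33), and 7 were listed at 0 in all libraries. The list is not limited to inhibitors of the serine proteases. Cst3, which fell, and Cstb, which missed the threshold, are cystatin genes that were also counted among the cathepsins and cystatins. Cst7, a member whose product inhibits cathepsin C, rose by 0.15 on the log2 scale and was not on this list. Slpi, the secretory leukocyte protease inhibitor of elastase and cathepsin G, fell from 206, 211 and 209.5 FPKM to 104, 109 and 109 FPKM (log2 fold change -0.95, SE 0.025, adjusted p by limma = 3.58e-09). Serpina3g fell from 451 ± 2.74 to 336 ± 2.25 FPKM, Serpina3f from 11.95 ± 0.293 to 6.32 ± 0.303 FPKM and Wfdc18 from 10.9 ± 0.431 to 3.24 ± 0.558 FPKM. These 3 belong to multigene families, and whether they share reads with other members was not tested. Serpinb1a, an intracellular inhibitor of elastase, proteinase 3 and cathepsin G that is named after its value was seen, fell from 343, 357 and 349 FPKM to 312, 315 and 307 FPKM (log2 fold change -0.17).

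Most tested genes of later neutrophils fell. The list holds secondary and tertiary granule genes and other markers of these cells, such as S100a8 and Padi4. Of its 18 genes 13 were tested. In 8 the level fell, 2 rose and 3 missed the threshold (median log2 fold change -0.47). Ngp, a neutrophil granule protein, fell from 8.21, 9.32 and 10.1 FPKM to 2.78, 3.09 and 2.999 FPKM, Itgam, the integrin CD11b, from 13.6 ± 0.154 to 6.77 ± 0.394 FPKM and S100a8 from 85.6 ± 1.42 to 61.7 ± 4.45 FPKM. Lcn2, which encodes the secondary granule protein lipocalin 2, rose from 12.6, 14.5 and 12.5 FPKM to 22.0, 24.2 and 22.1 FPKM. The other gene that rose was Padi4, named after its value was seen, which encodes a histone-citrullinating enzyme and went from 43.4 ± 1.19 to 53.5 ± 1.07 FPKM. The list summed to 217 to 225 FPKM in Ctrl and 183 to 186 FPKM in IR, while Mpo alone was at 2243 FPKM or more in every library.

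**Figure D4:**
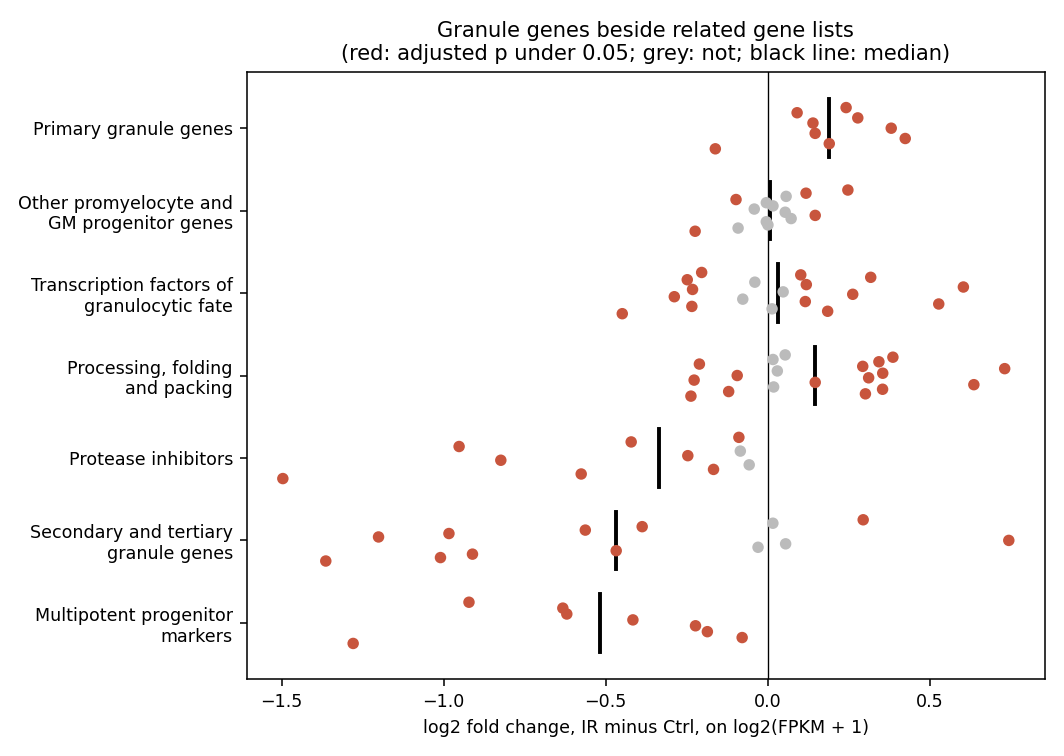
Log2 fold change of IR over Ctrl on log2(FPKM + 1) (x axis) for each tested gene of 7 lists (rows), in red where the adjusted p was under 0.05 and grey otherwise, with a black line at the list's median. The median of the primary granule genes is 0.19, against -0.33 for the protease inhibitors and -0.52 for the multipotent progenitor markers. The row of secondary and tertiary granule genes has a median of -0.47 and also holds other markers of later neutrophils.

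Lists of markers of other cells differed in direction. All 8 tested markers of multipotent progenitors fell, with a median log2 fold change of -0.52, and their summed level went from 1982 to 1994 FPKM in Ctrl to 1452 to 1483 FPKM in IR. Of 11 tested monocyte and macrophage markers 9 fell and 1 rose, with sums of 752 to 764 FPKM and 634 to 639 FPKM. Basophil, mast cell and eosinophil markers were divided: 5 of 12 tested rose and 6 fell, with Fcer1a, the IgE receptor chain, at a log2 fold change of 1.26 and Prg2, the eosinophil major basic protein, at -1.11. Of 10 tested erythroid markers 6 rose and 4 fell, with sums of 573 to 576 FPKM and 596 to 599 FPKM. Of 9 B cell and plasma cell markers 5 were tested, of which 2 rose and 3 fell; their sum of 570 to 576 FPKM in Ctrl and 867 to 885 FPKM in IR was mostly Jchain. Of mature neutrophil genes named after their values were seen, Ly6g, Mmp8 and Mmp9 had means under 1 FPKM in both groups. The part of any of these cells in the rise of the granule genes was not tested.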

How the data were processed

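The authors' deposited tables give 1 value per gene symbol and library, taken here as FPKM; the column header gives only the library name, and the unit follows from the range of the values and from the programs listed. Per the submitters' processing notes, fastp, HISAT2 and StringTie were used on GRCm38 (mm10); their versions, order, settings and annotation are not stated there. Of 21878 entries, 27 that carry a date in place of a symbol were left out. Libraries were grouped by the group in their titles. IR was compared with Ctrl by limma 3.58.1 in R 4.3.3 on log2(FPKM + 1), 2-sided, with empirical Bayes and a mean-variance trend, without a replicate block, at a Benjamini-Hochberg adjusted p under 0.05; the script was tested on simulated data. Fold changes on this scale understate changes of low genes. Depth was read from genes with 1 annotated transcript, where 24.9% to 28.0% of low values of FPKM times length lay within 0.01 of a whole multiple of 1 step, too few to recover reads. Fragment numbers are therefore approximate, use the coding transcript with the most exons and cover counting error only. Promoter sequences are from RefSeq, and motifs were searched on both strands. The 10 members and the other gene lists were chosen with earlier results of these data known. Named genes are the members, the 4 tested genes with the smallest p of each other list, and neighbours and family members at 1 FPKM or more; others are said to be named after their values were seen.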

Additional observations from a re-analysis of the deposited data

How the results depend on the processing

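The 15 alternatives were pseudocounts of 0.1 and 5, no filter on low values, a filter of 5 FPKM, scaling by the median, by total (TPM) and by quantiles, limma without the variance trend, a replicate block, and each library left out in turn. All 9 tested members kept their direction under all 15, and all but Prtn3 stayed past the threshold. Prtn3 missed it under 5 of them, with log2 fold changes of 0.05 to 0.12 and limma adjusted p from 0.00701 to 0.120 over all alternatives. The number of members called higher was 7 or 8, and 1 was lower throughout. Among all genes, 2127 to 3046 were called higher and 2254 to 3530 lower, and with 1 library left out 2320 to 2413 and 2547 to 2765. The numbers in the titles are not said to pair the libraries. Same-numbered libraries correlated at r = 0.0085, -0.0314 and -0.0486 in their deviations from the group means, and not every library correlated best with its own number. With so few libraries, these values cannot decide whether the libraries were paired. With the replicate block 2539 genes were called higher and 2840 lower, and 8 members higher and 1 lower. Depth limits Ctsc and Hp most, with counting SDs of about 4.02% and 2.71% per library.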
